A study of Mus musculus with 4 samples.

Results

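miR-21 was read on mouse miRNA arrays as 1 of 577 miRNA names, taken as the rows of non-control spots that carry exactly the name mmu-miR-21. It was represented by 2 probes with 10 spots each, so that every array held 20 spots for it. The arrays profiled B104 cells, a clonal neuroblastoma line labeled as mouse, 48 hours after transfection with 20 nM of an siRNA duplex against RBM3 (siRBM3, 2 arrays) or after mock transfection (control, 2 arrays). The labels give the organism as mouse, while B104 is known as a line from a rat tumor, so the species of the RNA read here is not settled. RBM3 binds RNA and is induced by cooling, and the comparison asks how its depletion alters mature miRNA levels. The control cells received no other siRNA, so on these arrays the siRNA duplex itself and the loss of RBM3 cannot be told apart. The paper shows a scrambled siRNA on blots of RBM3 and let-7g, and no array here holds it. The 4 samples come from 1 clonal line, and RBM3 was not among the array's targets. The labels do not say whether the replicates of a group are separate cultures. The paper describes repeated control and knockdown experiments for its arrays, with Western blots in which the siRNA lowered RBM3. The p-values below measure the spread between arrays, which may be technical, and nothing more.

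miR-21 is made from the primary transcript of Mir21a, which overlaps the 3′ end of Vmp1, a gene for a membrane protein of autophagy. Drosha and Dicer release the duplex, the strand from the 5′ arm is loaded into Argonaute as miR-21, and bases 2 to 8 of it, the seed, pair with target mRNAs. miR-21 is abundant in many cell lines and tumors and is known as an oncogenic miRNA that represses Pdcd4, Spry1 and Spry2. The strand from the 3′ arm, named miR-21* on the array, is usually the less abundant one.

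The sequences below are RefSeq entries on GRCm38.p6. They are shown because the results compare the arms of the hairpin and because near-identical RNAs might also be read by the probes. The miR-21 hairpin lies at chr11:86584067-86584158 on the minus strand. Its bases 18 to 39 are miR-21 and its bases 56 to 77 are miR-21*, both in capitals in the first line. In the other lines capitals mark the seed.
Mir21a hairpin: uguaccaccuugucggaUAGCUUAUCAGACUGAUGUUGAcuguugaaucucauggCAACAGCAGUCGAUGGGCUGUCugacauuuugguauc
miR-21 (chr11:86584120-86584141, minus strand): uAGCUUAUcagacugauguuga
miR-21* (chr11:86584082-86584103, minus strand): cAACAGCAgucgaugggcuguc
miR-21b (chromosome 3): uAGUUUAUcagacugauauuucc
miR-21c (chromosome 8): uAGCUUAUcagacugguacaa
Counted from base 1 at the 5′ end of miR-21, miR-21b carries C4U, G18A, G21U and A22C and is 23 bases long. miR-21c carries A16G, G18A, U19C, U20A and G21A and is 21 bases long. The C4U difference lies in the seed, so miR-21b has another seed, and miR-21c shares the seed of miR-21. miR-21 and miR-21c were the only 2 of 1738 mature names in the RefSeq table with this seed, and miR-590-5p had no entry there. These are mouse sequences, and whether the cells make miR-21b or miR-21c was not tested. Neither is a name on this array. The probe sequences are not given, so whether the miR-21 probes also read these RNAs is not known. Any such signal could not be told apart from that of miR-21.

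miR-21 was detected on every array, and its signal was lower in both siRBM3 arrays than in both control arrays. The total signal, in arbitrary units summed over its probes, was 3826 and 3950 in siRBM3 cells, against 15525 and 17380 in control cells. The siRBM3 replicates lay close together and far below the control replicates with no overlap, as both siRBM3 signals lay below both control signals for 79.2% of the 216 names detected on at least 1 array. The means were 3888 ± 87.8 in siRBM3 cells and 16452 ± 1312 in control cells (SD, n = 2 each), a signal 4.23 times lower in siRBM3 cells. In bulk RNA, fewer cells that make miR-21 and less miR-21 per cell cannot be told apart.

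In the model fitted over all names the fall was larger than the spread between arrays, but it depended on the scaling between arrays. On log2(signal + 20) after limma's scale normalization, which here gives the arrays one median over all names, miR-21 differed by -1.77 (SE 0.127, 95% confidence interval -2.02 to -1.52, adjusted p = 2.91e-31 by limma with Benjamini-Hochberg adjustment over 216 names). The median signal over all names was 2.13 and 1.92 in siRBM3 cells, against 3.38 and 4.02 in control cells. These values lie below the SDs of the negative control spots (6.46 to 8.22), so this scaling rests on background. Without any scaling miR-21 differed by -2.07 (SE 0.137, 95% confidence interval -2.34 to -1.80, limma adjusted p = 5.29e-35), but the sign turned to 5.96 with scale normalization of signals floored at 0.5, to 1.63 with scaling to the median absolute deviation of the names detected on every array, and to 0.0332 with centering on the 75th percentile of those names. With scaling of all names to one median absolute deviation, the quantity that the study's methods name, the difference was -0.0782 and was not called (limma adjusted p = 0.800). Most names moved the same way: 76.9% of the 216 names detected on at least 1 array were called lower and 18.5% were called higher in siRBM3 cells, so a call of lower does not set miR-21 apart. An exact permutation test on the signals of miR-21 alone gives p = 0.333, two-sided, the smallest that 2 against 2 arrays allow.

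The direction was the same spot by spot and in both probes. Probe A_54_P1307 averaged 3479 and 3515 over its 10 spots in siRBM3 cells, against 12965 and 14580 in control cells. Probe A_54_P1308 averaged 2286 and 2375 in siRBM3 cells, against 9416 and 10548 in control cells. Among 40 spots per group, the highest siRBM3 spot (3748) lay below the lowest control spot (9028). All 80 spots were well above background and unsaturated, 4 carried the scanner software's outlier flag, and the coefficient of variation over the 10 spots of a probe on an array was 1.52% to 7.08%. Spots of an array share its RNA and are no replicates of the condition.

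**Figure D1:**
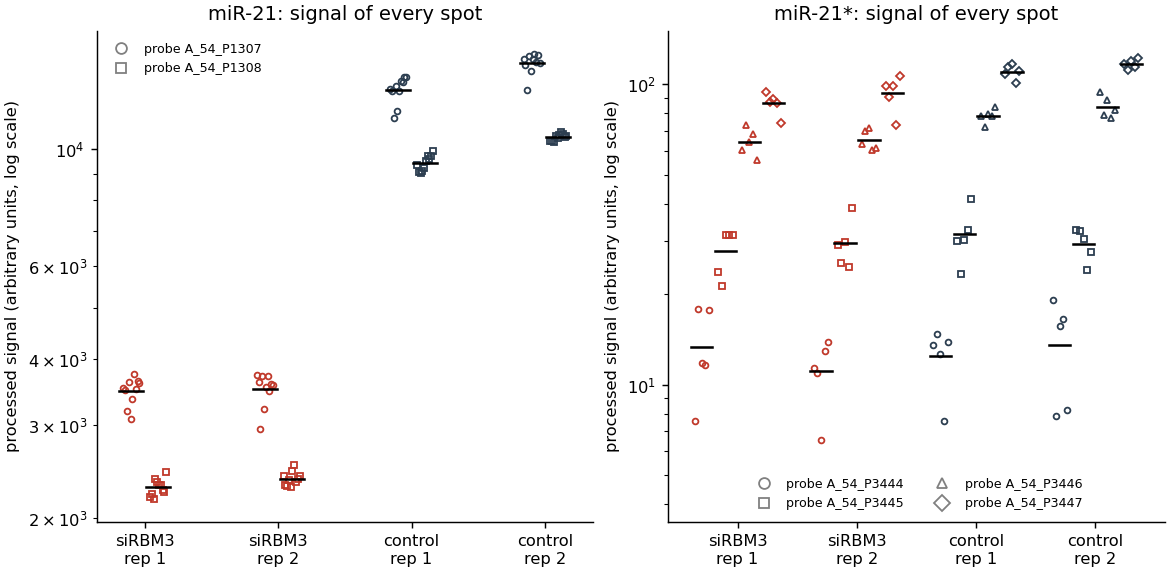
Processed signal (arbitrary units, log scale) of every spot of miR-21 (left) and of its other arm, miR-21* (right), on the 2 siRBM3 arrays (red) and the 2 control arrays (dark), with marker shapes for probes and a bar for the mean of a probe's spots. For miR-21 no siRBM3 spot reaches 9028, the lowest control spot, while the miR-21* probes sit much closer together between the groups.

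Fitted over 546 probes without scaling on log2(mean of spots + 1), A_54_P1307 differed by -1.97 (SE 0.0947) and A_54_P1308 by -2.10 (SE 0.0861), each with an adjusted p of 0.0108 in limma. In that fit 59.2% of probes were called lower and 13.7% higher. Centered on the 75th percentile of the probes of names detected on every array, the differences were -0.177 (limma adjusted p = 0.215) and -0.298 (limma adjusted p = 0.0972). The probes did not fall by quite the same amount: the ratio of A_54_P1307 to A_54_P1308 was 1.52 and 1.48 in siRBM3 cells, against 1.38 and 1.38 in control cells. The exact permutation p of that difference was 0.333, the smallest this design allows.

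Rank and share of signal do not change when an array is multiplied by a constant, and both placed miR-21 lower in siRBM3 cells. It stood at rank 3 among the 148 and 164 names detected on the siRBM3 arrays and at rank 2 among the 178 and 191 names detected on the control arrays. It held 5.18% and 5.22% of the summed signal of all detected names in siRBM3 cells, against 9.30% and 9.42% in control cells. The mean shares were 5.20% ± 0.0225 in siRBM3 cells and 9.36% ± 0.0827 in control cells (SD, n = 2 each), and the exact permutation p of the difference, -4.16 percentage points, was 0.333. Probes differ in how brightly they read their targets, so ranks and shares here order signals and not molecules.

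The share moved with one other name. miR-720, a name later attributed to a tRNA fragment, was the brightest on every array, with 32743 and 32650 in siRBM3 cells, against 37685 and 37874 in control cells. Its part of the detected signal was 44.4% and 43.1% in siRBM3 cells, against 22.6% and 20.5% in control cells. With miR-720 left out, miR-21 held 9.32% and 9.17% in siRBM3 cells, against 12.0% and 11.9% in control cells, so the groups still did not overlap and the distance between the means narrowed to -2.69 percentage points. The summed signal of all detected names was 73808 and 75738 in siRBM3 cells, against 166844 and 184463 in control cells.

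**Figure D2:**
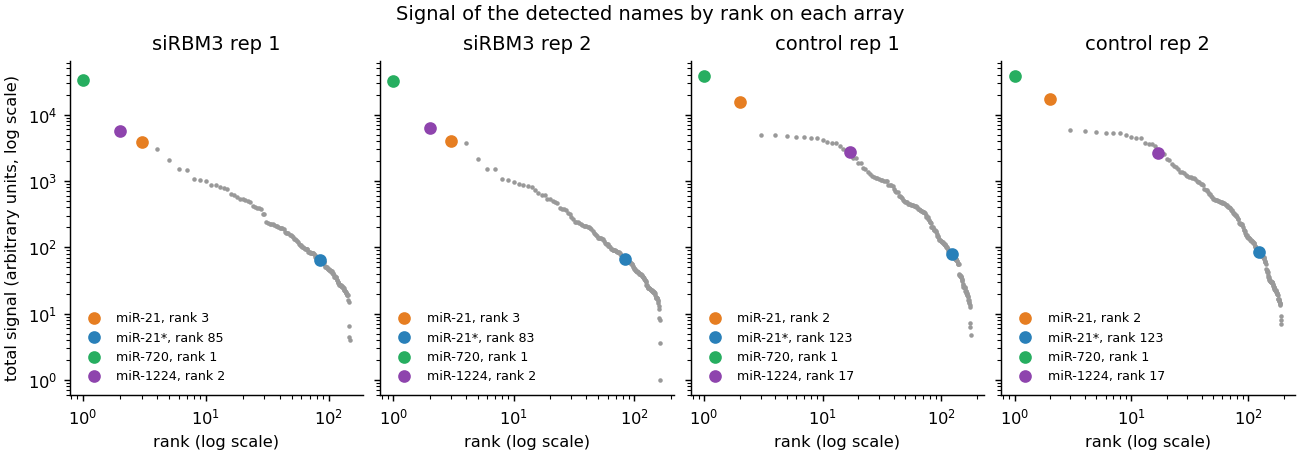
Total signal (arbitrary units, log scale) of each detected name against its rank on the array (log scale), with the siRBM3 arrays at the left and the control arrays at the right. miR-21 (orange) stands at rank 3 in siRBM3 cells and at rank 2 in control cells, miR-720 (green) is first on each array, and miR-1224 (purple) stands at rank 2 in siRBM3 cells and at rank 17 in control cells.

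The name that passed miR-21 in the siRBM3 arrays was miR-1224, a mirtron whose precursor is released by splicing instead of Drosha. Its signal was 5598 and 6333 in siRBM3 cells, against 2714 and 2653 in control cells. Both siRBM3 signals lay above both control signals, as for 19% of the 216 names. Relative to miR-21, that is with every array centered on miR-21, it differed by +3.22 on the log2 scale (SE 0.130, limma adjusted p = 4.28e-63). Such differences do not move when all log2 values of an array are shifted together, they do move with the offset and with a scaling that multiplies the log2 values, and each carries the error of miR-21 itself. Of the 215 other names, 9.77% were called below miR-21 in such differences and 65.6% above it.

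The names just below miR-21 kept more of their signal than it did in 3 of 5 cases. Over the 215 other names 65.6% were called above miR-21 in relative change and 9.77% below it. A separate fit limited to the 130 other names detected on every array called 69 above it and 30 below it. miR-494, from the imprinted Dlk1-Dio3 cluster, gave 3074 and 3702 in siRBM3 cells, against 4164 and 3662 in control cells, with overlapping groups and a difference relative to miR-21 of +1.86 (limma adjusted p = 2.36e-32). miR-206, a skeletal muscle miRNA, gave 2043 and 2113 in siRBM3 cells, against 4697 and 5961 in control cells, or +0.73 relative to miR-21 (limma adjusted p = 1.15e-07). miR-23a, transcribed with miR-27a and miR-24, gave 1516 and 1509 in siRBM3 cells, against 4925 and 5357 in control cells, or +0.32 relative to miR-21 (limma adjusted p = 0.0198). The other two neighbors, both close behind miR-21 in control cells only, lost more. miR-125b-5p, a miRNA of neural and stem cells related to worm lin-4, gave 521 and 460 in siRBM3 cells, against 4862 and 5584 in control cells, or -1.29 relative to miR-21 (limma adjusted p = 1.04e-18). let-7c gave 881 and 871 in siRBM3 cells, against 4590 and 5434 in control cells, or -0.41 relative to miR-21 (limma adjusted p = 0.00281).

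Within the order of all changes miR-21 stood below the middle after scale normalization and without scaling, both with the offset of 20. The median difference over the 216 names was -1.21 after scale normalization and -1.36 without scaling, and miR-21 differed from these medians by -0.56 and -0.72. After scale normalization 61 names had a larger fall and 154 did not. Among the 131 names detected on every array the median was -1.70, miR-21 differed from it by only -0.0737, and 56 names had a larger fall. Its distance from the median turned to 0.0736 above it when signals under 0.5 were set to 0.5 without scaling and to 0.00805 above it with an offset of 1. It was 0.73 and 1.51 above it with scaling to the median absolute deviation of all names and of the names detected on every array, and 3.60 above it with scale normalization of floored signals, so its place relative to all names depends on the floor or offset and on the scaling.

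**Figure D3:**
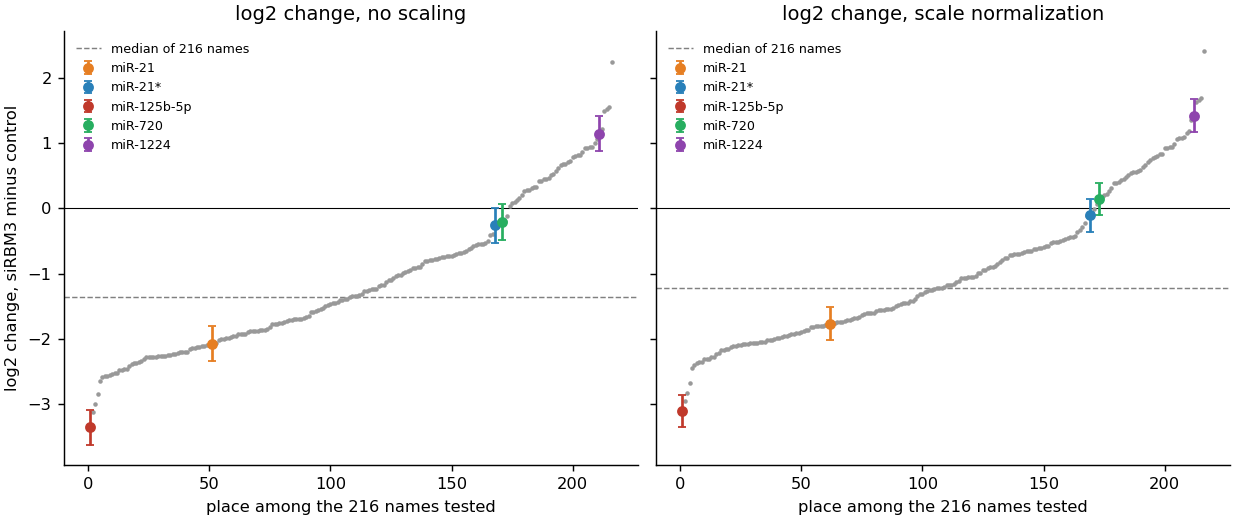
Log2 difference, siRBM3 minus control, of the 216 names detected on at least 1 array, in ascending order, without scaling (left) and after scale normalization (right). Colored points carry 95% confidence intervals and the dashed line is the median. miR-21 lies at -2.07 and -1.77, below medians of -1.36 and -1.21, and between miR-125b-5p, the lowest, and miR-1224. Its sign turned with scale normalization of floored signals and with either scaling to the names detected on every array.

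The largest differences over all names bracket it. miR-125b-5p differed by -3.11, miR-199b* by -2.95 and miR-199b by -2.82 after scale normalization. At the other end miR-574-5p differed by +2.41, miR-669c by +1.70 and miR-468 by +1.66. miR-574-5p gave 421 and 288 in siRBM3 cells, against 56.5 and 59.3 in control cells, while miR-669c and miR-468 were detected on only 3 and 2 of the 4 arrays. These 6 names were past the test in limma, with adjusted p-values from 1.02e-61 to 1.72e-28.

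The other arm of the same hairpin behaved differently. miR-21* was detected on every array, with 63.7 and 66.1 in siRBM3 cells, against 79.5 and 83.7 in control cells. The groups did not overlap, but the means, 64.9 ± 1.72 in siRBM3 cells and 81.6 ± 3.02 in control cells (SD, n = 2 each), were close. The difference did not pass the test either after scale normalization (-0.11, 95% confidence interval -0.36 to 0.15, limma adjusted p = 0.412) or without scaling (-0.26, 95% confidence interval -0.53 to 0.01, limma adjusted p = 0.0642), and its sign turned under 8 alternative scalings, with values from 0.30 to 3.54. Relative to miR-21, miR-21* differed by +1.81 (SE 0.130, limma adjusted p = 3.55e-31), and this difference stayed past the test in each of its 8 alternatives. miR-21* ranked 85 and 83 in siRBM3 cells, against 123 and 123 in control cells.

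Only part of the miR-21* signal was well above background. Of its 4 probes, A_54_P3446 and A_54_P3447 were well above background on every spot. A_54_P3446 averaged 64.4 and 65.2 in siRBM3 cells, against 78.3 and 84.1 in control cells, and A_54_P3447 averaged 86.4 and 93.4 in siRBM3 cells, against 110 and 117 in control cells. Their log2 differences without scaling were -0.32 and -0.33, with limma adjusted p-values of 0.0803 and 0.0689, and both passed the test without the replicate block (limma adjusted p = 0.0242 and 0.0318). Centered on the 75th percentile of the probes of names detected on every array, they turned to +1.48 and +1.46 (limma adjusted p = 0.0120 and 0.0141). That fit called 204 of 546 probes higher. No spot of A_54_P3444 and only some spots of A_54_P3445 were well above background. For scale, 21 other names detected on every array had control signals of 54.4 to 122, near that of miR-21*. Their differences without scaling ran from -1.87 to 2.24 with a median of -0.98, 15 of them below that of miR-21*. Left out are names of like control signal that were not detected in siRBM3 cells, such as miR-193b and miR-101a, so the set favors smaller falls.

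Both arms were detected on every array for 9 hairpins, 7 of them named with a starred strand and 2 by the 5p and 3p arm. The starred or 3p strand minus the other strand came to +3.77 for miR-125a, +2.28 for miR-99b, +1.81 for miR-21, +0.69 for miR-322, +0.63 for miR-24 (with miR-24-2*), +0.43 for miR-9, +0.30 for miR-140, +0.02 for miR-362 and -0.12 for miR-199b on the log2 scale without scaling. With the offset of 20, miR-21 stood at place 3 of 9 by the size of this gap, and the gap was above 0 in 8 of 9. Without the offset the gap of miR-21 was +1.75. Those of miR-24 and miR-9 shrank to +0.05 and +0.21, while those of miR-140 and miR-362 grew to +0.69 and +0.50. The value of miR-322 turned to -0.65 without the offset of 20, where the signals of miR-322* were 3.98 and 1.01 in siRBM3 cells, against 4.82 and 7.93 in control cells. miR-24 is made from a pair of hairpins and only one starred strand is compared. Starred strands not detected in siRBM3 cells, such as miR-455* and miR-31*, are left out, so these hairpins do not stand for all. No test was made across them.

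miR-590-5p is known from other work to carry the seed of miR-21. Its signal was 3.15 and 3.03 in siRBM3 cells, against 3.52 and 1.96 in control cells, and it was detected on no array. Signals this low lie within the spread of the negative control spots, whose means per array were -1.48 to 0.643 with SDs of 6.46 to 8.22, so no difference in miR-590-5p was detectable.

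Of 13 other miRNAs usually counted as oncogenic, 9 did not differ from miR-21 beyond the error of the fit with the offset. All 13 were detected on every array and 13 of 13 were called lower in siRBM3 cells, against 76.9% of all names, with a median of -2.01 after scale normalization beside -1.21 over all names and -1.70 over the names detected on every array. The count called lower was 4 when scaled to the median absolute deviation of names detected on every array, 2 when centered on the 75th percentile of those names and 0 with scale normalization of floored signals, where 9 were called higher. Relative to miR-21 the median member differed by -0.15, 2 of 13 members were called below miR-21 and 2 above it, beside 9.77% and 65.6% of the 215 other names. Names detected on every array, as all 13 were, are the closer background. Fits limited to them called 111 of 131 names lower, and 30 of 130 below miR-21 and 69 above it.

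miR-93 and miR-25, neighbors in the Mcm7 intron, were those below. miR-93 gave 155 and 150 in siRBM3 cells, against 1004 and 1120 in control cells, or -0.57 relative to miR-21 (limma adjusted p = 2.99e-05). With the offset this was the largest fall of the list. miR-25 lay at -0.31 (limma adjusted p = 0.0275). Those above were miR-222, which targets the cell cycle inhibitor p27, and miR-155, a miRNA of immune cells and lymphomas. miR-222 gave 61.7 and 56.8 in siRBM3 cells, against 121 and 125 in control cells, or +1.22 relative to miR-21 (limma adjusted p = 2.82e-17), the smallest fall of the list. miR-155 gave 43.8 and 44.7 in siRBM3 cells, against 120 and 132 in control cells, or +0.89 (limma adjusted p = 1.95e-10). The remaining 9 members, 6 of them from the miR-17-92 cluster, were not told apart from miR-21 and ran from -0.21 for miR-106b to +0.20 for miR-221. These calls hold for values with the offset. Without scaling, the list ran from -2.65 to -0.85 with the offset, where miR-21 lay at -2.07. With signals under 0.5 set to 0.5 instead, it ran from -2.95 to -1.05, and miR-21 lay at -2.08. miR-10b, the dimmest member in siRBM3 cells, gave 28.8 and 23.3 there, against 182 and 221 in control cells.

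**Figure D4:**
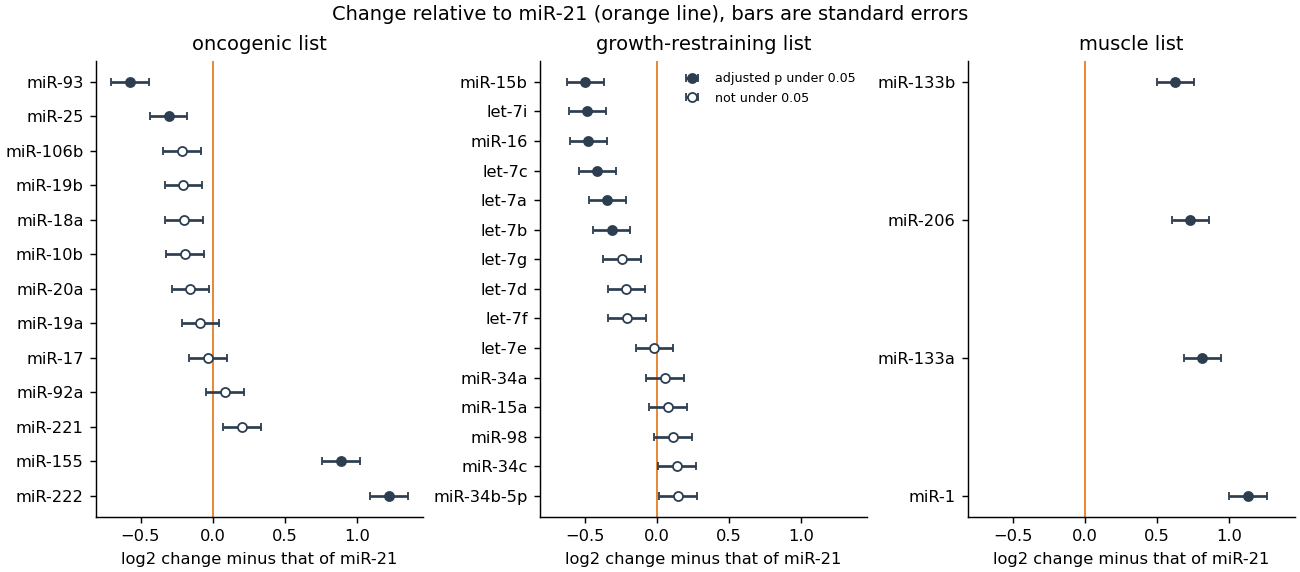
Log2 difference, siRBM3 minus control, of the members of 3 lists after subtracting that of miR-21 (orange line at 0), with standard errors of 0.130. Filled points have an adjusted p under 0.05. Of the oncogenic list miR-93 and miR-25 lie below miR-21 and miR-155 and miR-222 above it, 6 members of the growth-restraining list lie below it, and all 4 muscle miRNAs lie above it.

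A list of 15 miRNAs known to restrain growth, the let-7 family with miR-98, the miR-15 and miR-16 family and the miR-34 family, was set beside it. All 15 were detected on every array and 15 of 15 were called lower after scale normalization, against 76.9% of all names, with a median of -2.05 beside -1.21 over all names and -1.70 over the names detected on every array. That count was 6 when centered on the 75th percentile of names detected on every array, 1 when scaled to the median absolute deviation of those names and 0 with scale normalization of floored signals, where 14 were called higher. Relative to miR-21, 6 of 15 were called below it and 0 above it, beside 9.77% and 65.6% of the 215 other names: let-7a (-0.34), let-7b (-0.31), let-7c (-0.41), let-7i (-0.48), miR-15b (-0.49) and miR-16 (-0.47). For names detected on every array, as all 15 were, separate fits called 111 of 131 lower, and 30 of 130 below miR-21 and 69 above it. The list ran from miR-15b, with 194 and 189 in siRBM3 cells, against 1166 and 1310 in control cells, to miR-34b-5p, with 121 and 125 in siRBM3 cells, against 503 and 543 in control cells. With signals under 0.5 set to 0.5 in place of the offset, let-7a, let-7b, let-7c, miR-25 and miR-23a were no longer told apart from miR-21 (limma adjusted p from 0.0536 to 0.0791), and let-7b was not without control replicate 2 (limma adjusted p = 0.0510).

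The names whose signals moved most like those of miR-21 over the 4 arrays were looked for. Likeness was the Euclidean distance between the log2(signal + 20) values of 2 names over the 4 arrays without scaling, after subtracting each name's mean, among 130 names detected on every array. The nearest were miR-324-5p (0.0374), miR-301a (0.0430), miR-106a (0.0481), miR-26b (0.0696) and miR-27a (0.0760), against a median distance of 0.404 and a largest of 4.33 for miR-574-5p. Apart from miR-21, no name known here to carry its seed (AGCUUAU) was detected on any array, so the search could not return one. The mature sequences of the nearest names on GRCm38.p6 are shown, with the seed in capitals.
miR-324-5p: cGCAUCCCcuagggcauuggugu
miR-301a: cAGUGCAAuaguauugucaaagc
miR-106a: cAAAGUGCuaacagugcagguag
miR-26b: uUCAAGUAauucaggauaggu
miR-27a: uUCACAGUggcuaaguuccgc

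These 5 names spanned a wide range of signal. miR-324-5p gave 35.4 and 35.1 in siRBM3 cells, against 200 and 225 in control cells, and miR-301a gave 86.1 and 91.8 in siRBM3 cells, against 427 and 468 in control cells. miR-106a, from the X-linked paralog of the miR-17-92 cluster, gave 75.6 and 77.8 in siRBM3 cells, against 380 and 413 in control cells. The brightest of them was miR-27a, with 766 and 734 in siRBM3 cells, against 3023 and 3401 in control cells. miR-26b gave 95.6 and 95.5 in siRBM3 cells, against 451 and 522 in control cells. The offset of 20 shrinks the differences of dim names more than those of bright ones: with signals under 0.5 set to 0.5 and no offset, miR-324-5p lay 0.51 below miR-21.

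Some facts of all 4 arrays bear on these values. The arrays lay on 1 slide, no spot was saturated, and 131 names were detected on every array while 361 were detected on none. The positive control probes kept were the 6 with every spot well above background on all 4 arrays. All 6 were dimmer in siRBM3 arrays, with log2 differences of -0.52 to -1.57, and with arrays centered on them miR-21 differed by -1.02 (limma adjusted p = 0.000355). Their part in the fall of miR-21 was not tested. Of neural markers, miR-9 was detected on every array, with 80.1 and 83.6 in siRBM3 cells, against 482 and 522 in control cells, or -0.28 relative to miR-21 (limma adjusted p = 0.0402), and miR-9* lay at +0.15 (limma adjusted p = 0.289). miR-7a and miR-219 were detected on 2 of the 4 arrays, at -0.13 (limma adjusted p = 0.363) and +0.76 (limma adjusted p = 4.16e-08) relative to miR-21. Detected on none were miR-124, a defining neuronal miRNA, miR-7b, miR-129-5p and miR-138. The summed signal of these 8 neural names was 143 to 145 in siRBM3 cells, against 886 to 973 in control cells. Left out of that sum was miR-128, which the list held under names not on the array. It was detected on every array, with 44.7 and 40.0 in siRBM3 cells, against 174 and 201 in control cells. Relative to miR-21 it lay at +0.34 (limma adjusted p = 0.0140). The 4 muscle miRNAs, miR-206 and miR-1 with both miR-133 names, were detected on every array, with sums of 4441 to 4591 in siRBM3 cells, against 10192 to 12735 in control cells, and each was called above miR-21 in relative change, by 0.63 to 1.13, as were 65.6% of the 215 other names. The fit limited to names detected on every array called 69 of 130 above miR-21. None of 4 blood, 5 epithelial, 2 endothelial and 1 endocrine names was detected on any array.

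The size and sign of the miR-21 difference rest on what is held equal between arrays. The differences centered on the 75th percentile of all names (-1.50), after quantile normalization (-1.10) and after normexp correction with quantile normalization (-1.57) kept the direction and the call. The rank and the share do not rest on a constant factor between arrays.

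**Figure D5:**
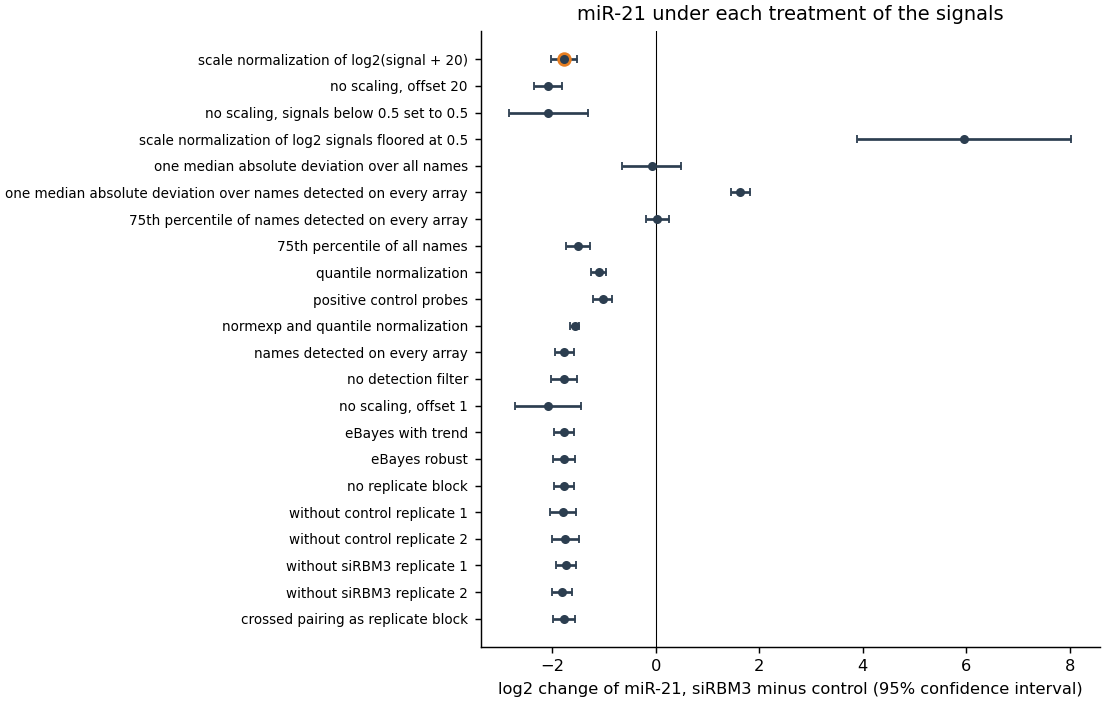
Log2 difference of miR-21, siRBM3 minus control, with its 95% confidence interval, under each treatment of the signals. The orange point is scale normalization of log2(signal + 20), at -1.77. Leaving out any array gives -1.81 to -1.73, while scale normalization of floored signals (5.96) and the scalings to the median absolute deviation (1.63) or the 75th percentile (0.0332) of names detected on every array lie above 0.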

How the data were processed

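Total RNA from B104 cells was labeled with Cy3 and hybridized to 1-color Agilent mouse miRNA arrays; the authors extracted the spots with Agilent Feature Extraction 10.1.1.1 (mm9 design). The deposited intensity columns are background-subtracted processed signals per spot and a total gene signal per name, not normalized between arrays. The deposited value table equals the total gene signal plus 20 within 1e-12, an intensity with no further scaling. Its offset was used here to take log2 values. All other values were computed here with R 4.3.3 and limma 3.58.1.

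The methods name scale normalization of log values to one median absolute deviation. The main fit used limma's scale method on log2(signal + 20) over 577 names, which for 1-color values sets one median; scaling to one median absolute deviation was run as an alternative. Names detected on at least 1 array (216) were kept, and lmFit and eBayes were run with the replicate number as a block, with Benjamini-Hochberg adjustment at 0.05. The block rests on the methods' allowance for paired samples. Same-numbered deviations from the group means correlated at -0.337 over 216 names, so the data give no sign of that pairing. limma estimated 1 variance for all names in this fit, which has 1 residual degree of freedom. Precision is limited by the number of arrays. The fit was tested on simulated data. Negative probe means were set to 0 and 1 was added before log2. Differences relative to miR-21 used arrays centered on miR-21, without scaling, and were added after seeing the data.

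Named miRNAs were miR-21, its other arm and its seed family, the members with extreme changes of an oncogenic and a growth-restraining list, the 5 names most like miR-21, the names ranked next to it and the 3 largest falls and rises. Other list members called relative to miR-21, cell type markers and the arms of other hairpins were picked with their values in view. The members and lists were chosen with earlier results of these data known. Alternatives covered the offset or floor, scaling, background correction, detection filter, block and left-out arrays. Sequences were taken from RefSeq tables on GRCm38.p6, where 9 of 10 mature names looked for matched.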

Additional observations from a re-analysis of the deposited data

How the results depend on the processing

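The log2 difference of miR-21 kept its sign and its call in 17 of 21 alternatives, from -2.08 with signals floored at 0.5 or an offset of 1 to -1.02 with centering on positive control probes. Alternatives of the detection filter, eBayes options, block and left-out arrays reused the scaled values of the main fit. Every alternative that lost the sign or the call changed the scaling. Without the replicate block the miR-21 difference was -1.77 (SE 0.0877), and with the replicate numbers crossed, an alternative added after seeing the data, it was again -1.77, with 167 names lower and 40 higher. It was 5.96 with scale normalization of floored signals, -0.0782 with scaling to the median absolute deviation of all names, 1.63 with that of the names detected on every array and 0.0332 with the 75th percentile of those names. The alternatives over names detected on every array set the median or the 75th percentile of these names equal across arrays, and their median signal was 94.1 and 92.3 in siRBM3 cells, against 370 and 413 in control cells. Leaving out an array gave -1.81 to -1.73.

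The number of names called lower was 166 and moved to 10 with scale normalization of floored signals, 57 with the median absolute deviation and 21 with the 75th percentile of names detected on every array, 103 with quantile normalization and 109 with normexp and quantile normalization. The number called higher was 40 and moved to 112, 92 and 144 in the first 3 of these, 75 with positive control probes and 15 among names detected on every array. The difference of miR-21 minus the median of all names was -0.72 without scaling, with either 75th percentile and with positive control probes, -0.77 after quantile normalization, -1.36 after normexp, -0.0737 among names detected on every array, -1.79 with no detection filter, 0.0736 with the floor of 0.5, 0.00805 with an offset of 1, 3.60 with scale normalization of floored signals, and 0.73 and 1.51 with the median absolute deviation of all names and of those detected on every array. It was -0.60 to -0.53 with an array left out. By the brightest probe of each name, the mean rank of miR-21 was 1.5 places lower in siRBM3 cells in place of 1. Its probes gave -0.177 and -0.298 with centering on the 75th percentile, both without a call, and the share kept its direction in all 7 alternatives.

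Relative to miR-21, the names called below it were 21 and moved to 41 with the floor of 0.5 and 35 with scale normalization, and those called above it were 141 and moved to 73 with the floor and 69 among names detected on every array. With an array left out they were 19 to 35 below, 35 of them without siRBM3 replicate 1, and 133 to 151 above. miR-21* relative to miR-21 was 1.66 to 1.87 in its 8 alternatives, all past the test. Its own difference turned to 3.54 with scale normalization of floored signals, 0.300 and 1.20 with the median absolute deviation of all names and of those detected on every array, 1.85 and 0.311 with the 75th percentile of names detected on every array and of all names, 1.001 after quantile normalization, 0.793 with positive control probes and 0.942 after normexp. Relative to miR-21, with the floor, with scale normalization and without siRBM3 replicate 1, miR-324-5p turned to -0.507, -0.139 and -0.0210 and miR-27a to -0.0173, -0.0488 and -0.0474, and with the floor miR-34b-5p turned to -0.00863. Without siRBM3 replicate 2 the differences were 0.0308 for miR-324-5p and 0.0595 for miR-27a. The cause of these turns was not tested. miR-9 was not told apart from miR-21 without control replicate 1 (limma adjusted p = 0.0563).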
